A study of Sus scrofa with 12 samples.

Results

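The hypoxia-inducible factor (HIF) subunits and the enzymes that sense oxygen for them were described in primary porcine granulosa cells kept at low or normal oxygen. The genes were the alpha subunits HIF1A, EPAS1 and HIF3A, the beta subunit ARNT, the prolyl hydroxylases EGLN1, EGLN2 and EGLN3, the ubiquitin ligase adaptor VHL and the asparaginyl hydroxylase HIF1AN. They were chosen by name as the core of the oxygen-sensing pathway, by a rule that uses no measured value, although earlier results of these data were known. Of these 9 genes, 7 carried their symbol among the 18060 genes of the deposited expression table. The VHL row had no symbol and was recognised by its description as the von Hippel-Lindau tumor suppressor. The EGLN2 row, on chromosome 6 from 49002854 to 49010040, had neither, and was matched by position to EGLN2 of the RefSeq annotation of Sscrofa11.1, from 49002266 to 49010042. The deposited annotation of that row gives the enzyme class of a HIF prolyl hydroxylase beside gene ontology terms of a Rab GTPase, so whether its values hold fragments of a neighbouring gene was not tested.

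Granulosa cells are the somatic cells that line the ovarian follicle and surround the oocyte. The donors were Duroc × Yorkshire × Landrace crossbred sows that were sexually mature, and the cells came from antral follicles and were grown in DMEM/F-12 medium with 15% fetal bovine serum. The hypoxia cultures had 12 h at 1% O2, 5% CO2 and 94% N2, and the normoxia cultures had 12 h at 21% O2, 5% CO2 and 74% N2. There were 3 biological replicates per condition. For every replicate, poly(A) RNA was sequenced as input and again after capture with an antibody against N6-methyladenosine (m6A), a methyl mark on mRNA. All 12 libraries carry 1 batch label. The sources used here do not say whether the replicates came from separate sows or from pools, so p-values measure the spread between these samples only.

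In cells with enough oxygen, the EGLN enzymes hydroxylate prolines of the HIF alpha proteins, using oxygen, iron and 2-oxoglutarate. VHL binds the hydroxylated protein and brings it to a ubiquitin ligase for degradation. HIF1AN hydroxylates an asparagine that blocks the binding of coactivators. When oxygen is short, alpha proteins accumulate, pair with ARNT and switch on target genes, and in many mammalian cells EGLN1 and EGLN3 are themselves such targets. The pathway is thus controlled largely at the protein level, and proteins were not measured here. The follicle wall has vessels outside its basement membrane, and the granulosa layer itself has none.

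In input RNA, 2 prolyl hydroxylase genes rose, while the third and 2 alpha subunit genes fell. EGLN3 and EGLN1 rose in hypoxia, with 4.77 and 3.47 times their normoxia means. EPAS1 and HIF1A fell to 0.306 and 0.424 of theirs, and EGLN2 fell to 0.649. ARNT, VHL and HIF1AN did not pass the test, and HIF3A was too low to be tested. Expression was tested with limma on log2(FPKM + 1), where FPKM are fragment numbers adjusted for the length of the transcript and the size of the library, over the 10196 genes that reached 1 FPKM in 3 or more libraries. At a Benjamini-Hochberg adjusted p under 0.05, 2 of the 8 tested genes were higher and 3 were lower. Over all tested genes, 5.4% were higher and 21.1% lower by the same rule. A scaling by median ratios moved those shares to 7.73% higher and 8.81% lower, and the median log2 fold change of all genes to -0.01, against -0.265 as deposited. After that scaling 2 members were still higher, EGLN3 and EGLN1, and 1 lower, EPAS1.

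**Figure D1:**
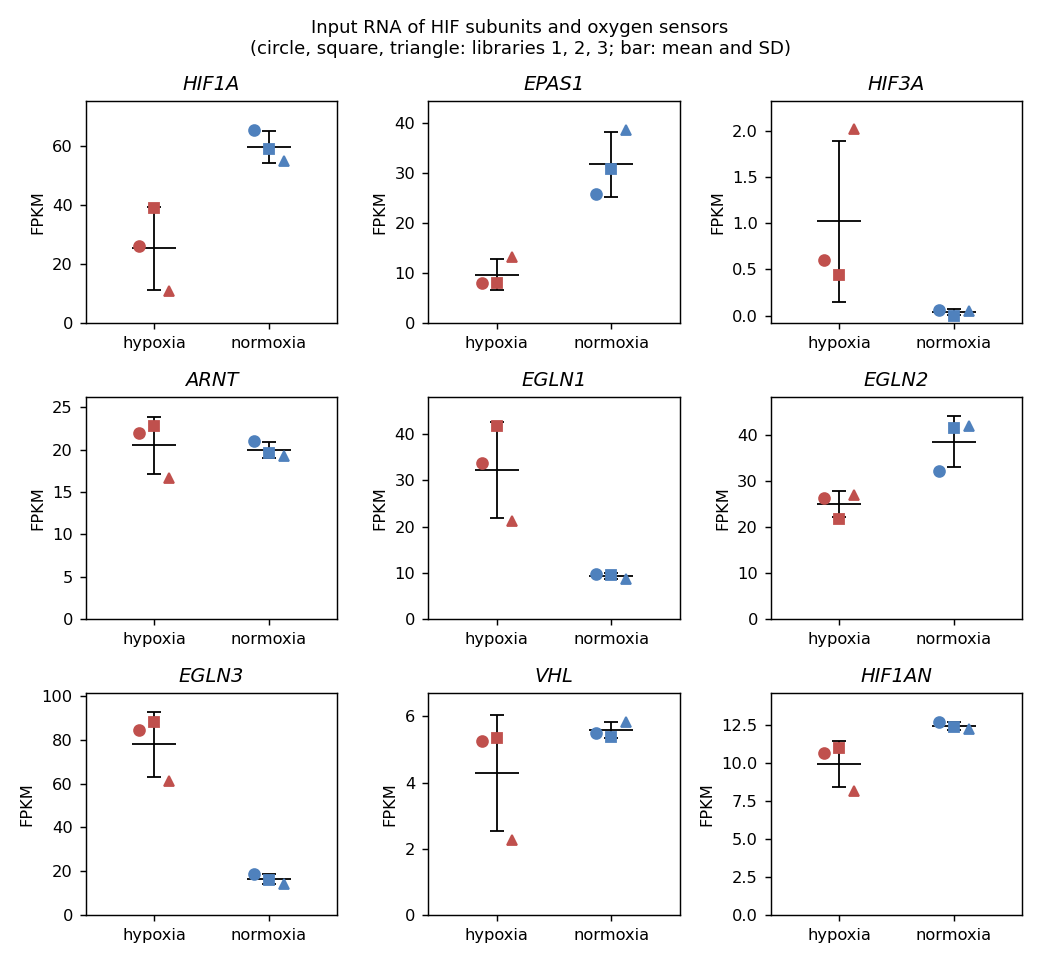
Input RNA level in FPKM (vertical axes, from 0 except for a small margin in the HIF3A panel) of the 9 genes in the 3 hypoxia and 3 normoxia libraries, with mean and SD. EGLN1, EGLN3 and HIF3A were higher in every hypoxia library than in any normoxia library, HIF1A, EPAS1, EGLN2, VHL and HIF1AN were lower in every one, and the ARNT values overlapped.

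Hypoxia library 3 stood apart from the other input libraries. Its median FPKM was 0.937, against 1.40 to 1.69 in the others, and 8886 genes reached 1 FPKM in it, against 9813 to 10212. Its mean correlation with the other hypoxia libraries was 0.962. For 6 of the 9 members (HIF1A, ARNT, EGLN1, EGLN3, VHL and HIF1AN) it held the lowest hypoxia value, and for EPAS1, EGLN2 and HIF3A the highest. The log2 fold change of each tested member is therefore also given without it. FPKM keep no read counts, so the depth of the libraries is unknown.

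The labelled cell type was checked on 12 granulosa markers, all found. They summed to between 388 and 459 FPKM in hypoxia and between 552 and 768 FPKM in normoxia. Most of that sum was CYP11A1 and GJA1, with means of 128 and 208 FPKM in hypoxia, against 315 and 243 FPKM in normoxia. Neither passed (limma adjusted p = 0.0612 and 0.503). The receptor for follicle-stimulating hormone, FSHR, had 5.52 ± 0.257 FPKM in hypoxia and 9.74 ± 0.692 FPKM in normoxia (SD, n = 3 each). The transcription factor FOXL2 had 4.50 ± 0.338 FPKM in hypoxia and 6.83 ± 0.904 FPKM in normoxia (SD, n = 3 each). In limma, 1 of the 9 tested granulosa markers was higher and 2 were lower, FSHR and AMHR2, beside 5.4% and 21.1% of all tested genes. The calls of FSHR and AMHR2 were both lost without hypoxia library 1 or normoxia library 3. They were also lost after median-ratio scaling (limma adjusted p = 0.104 and 0.073). After that scaling 1 marker was higher and 0 were lower, beside 7.73% and 8.81% of all tested genes. The higher one was the inhibin subunit gene INHBB, with 31.5 ± 1.82 FPKM in hypoxia and 16.4 ± 1.35 FPKM in normoxia (SD, n = 3 each; log2 fold change 0.90, limma adjusted p = 0.00429). The inhibin subunit genes INHA and INHBA had log2 fold changes of -0.02 and -0.10 and did not pass. AMH and CYP19A1, which mark growing and estrogen-producing follicles, averaged at most 0.233 FPKM in either condition. The 6 fibroblast and smooth muscle markers were also found in the RNA of the cultures, and which cells held them was not tested. These markers summed to between 3176 and 4349 FPKM in hypoxia and between 6990 and 8888 FPKM in normoxia, most of it ACTA2. Within that list 2 of 6 tested genes, ACTA2 and DES, were lower in limma and 1, PDGFRA, was higher, with 8.50 ± 1.14 FPKM in hypoxia and 4.33 ± 0.651 FPKM in normoxia (SD, n = 3 each; log2 fold change 0.84, limma adjusted p = 0.0121). Of all tested genes 21.1% were lower and 5.4% higher. The DES call (limma adjusted p = 0.0492) was lost after scaling (limma adjusted p = 0.251). It was also lost without hypoxia library 1, hypoxia library 2 or any 1 normoxia library. The PDGFRA call was kept after scaling and lost without hypoxia library 1 or normoxia library 2 (highest limma adjusted p = 0.0707). The 5 endothelial markers found summed to between 2.90 and 3.16 FPKM in hypoxia and between 6.31 and 6.93 FPKM in normoxia, with 4 of them under 1 FPKM and PECAM1 making up most of the sum. The 5 leukocyte markers found summed to between 3.86 and 7.80 FPKM in hypoxia and between 3.75 and 5.30 FPKM in normoxia, with PTPRC at or near 0 in every library. The 3 theca markers found summed to between 0.734 and 1.33 FPKM in hypoxia and between 1.88 and 2.03 FPKM in normoxia, and the 2 oocyte markers found, one of them GDF9, at most 1.33 FPKM in hypoxia and 1.41 FPKM in normoxia. The granulosa, muscle, endothelial and theca sums did not overlap between the conditions. Their part in the results for the members was not tested. In RNA from whole cultures, fewer cells of a type and less RNA per cell cannot be told apart.

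HIF1A encodes the alpha subunit of HIF-1, on chromosome 1 from 190625244 to 190674845. It had 26.3, 39.0 and 10.8 FPKM in the hypoxia libraries, against 65.7, 59.0 and 54.9 FPKM in the normoxia libraries. All hypoxia values lay below all normoxia values, and the hypoxia libraries differed among themselves more than the normoxia libraries did. The means were 25.4 ± 14.1 FPKM in hypoxia and 59.9 ± 5.41 FPKM in normoxia (SD, n = 3 each), a log2 fold change of -1.37 with an SE of 0.41 (limma adjusted p = 0.0476). Relative to the median of all genes the change was -1.11. The call stood close to the threshold and did not pass after median-ratio scaling (-1.06, limma adjusted p = 0.0932). Leaving out 1 library gave limma adjusted p-values between 0.0021 and 0.149, with the call lost without hypoxia library 1 and without each normoxia library. Without hypoxia library 3 the log2 fold change was -0.88 (limma adjusted p = 0.0021).

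EPAS1 encodes the alpha subunit of HIF-2, which in several tissues drives genes of erythropoiesis and vessels, and lies on chromosome 3 from 94165816 to 94254079 on the minus strand. It had 7.94, 7.96 and 13.2 FPKM in the hypoxia libraries, against 25.8, 30.7 and 38.6 FPKM in the normoxia libraries. The lowest normoxia value was above the highest hypoxia value, that of hypoxia library 3. EPAS1 fell to 9.71 ± 3.04 FPKM in hypoxia, against 31.7 ± 6.46 FPKM in normoxia (SD, n = 3 each), a log2 fold change of -1.63 with an SE of 0.24 (limma adjusted p = 0.00408). The call was kept after scaling (-1.32, limma adjusted p = 0.0205) and without each library in turn (highest limma adjusted p = 0.0300), and it was -1.85 without hypoxia library 3 (limma adjusted p = 1.55e-05).

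HIF3A encodes the third alpha subunit, some of whose splice forms in human and mouse restrain the other alpha subunits, and lies on chromosome 6 from 52342885 to 52373058. It had 0.597, 0.440 and 2.02 FPKM in the hypoxia libraries, against 0.0603, 0 and 0.0478 FPKM in the normoxia libraries. Every hypoxia value was above every normoxia value, yet 1 hypoxia library alone reached 1 FPKM, so the gene did not enter the test. With no filter on low values its log2 fold change on the log2(FPKM + 1) scale was 0.88 (limma adjusted p = 0.0938). The authors' deposited table marks HIF3A as up, with a log2 fold change of 4.82 and a q-value of 1.28e-07.

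ARNT encodes the beta subunit shared by the alpha subunits and by other factors with a bHLH-PAS domain, on chromosome 4 from 98333459 to 98389457. It had 22.0, 22.8 and 16.7 FPKM in the hypoxia libraries, against 21.0, 19.7 and 19.2 FPKM in the normoxia libraries. The conditions overlapped, with hypoxia library 3 below and hypoxia libraries 1 and 2 above all normoxia libraries. The log2 fold change was 0.03 (SE 0.16, limma adjusted p = 0.931) as deposited and 0.33 (limma adjusted p = 0.180) after scaling. Without hypoxia library 3 it was 0.16 (limma adjusted p = 0.366).

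EGLN3 encodes the hydroxylase PHD3 and lies on chromosome 7 from 65805522 to 65833529. It had 84.6, 88.3 and 60.9 FPKM in the hypoxia libraries, against 18.9, 16.0 and 14.1 FPKM in the normoxia libraries. The lowest hypoxia value, in library 3, was still far above every normoxia value. EGLN3 rose to 78.0 ± 14.9 FPKM in hypoxia, against 16.3 ± 2.41 FPKM in normoxia (SD, n = 3 each), a log2 fold change of 2.18 with an SE of 0.19 (limma adjusted p = 0.000738). It was the member with the largest log2 fold change of those tested. The call was kept after scaling (2.49, limma adjusted p = 0.000211) and without each library in turn (highest limma adjusted p = 0.0101), with 2.34 without hypoxia library 3.

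EGLN1 encodes PHD2, the main HIF hydroxylase of most mammalian cells, on chromosome 14 from 59113844 to 59168395. It had 33.6, 41.8 and 21.1 FPKM in the hypoxia libraries, against 9.79, 9.53 and 8.55 FPKM in the normoxia libraries. The normoxia values lay close together, while hypoxia library 2 stood well above hypoxia library 3, and no hypoxia value overlapped a normoxia value. EGLN1 rose to 32.2 ± 10.4 FPKM in hypoxia, against 9.29 ± 0.651 FPKM in normoxia (SD, n = 3 each), a log2 fold change of 1.64 with an SE of 0.25 (limma adjusted p = 0.00439). The call was kept after scaling (1.94, limma adjusted p = 0.00136) and without each library in turn (highest limma adjusted p = 0.0307), with 1.91 without hypoxia library 3.

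The row matched to EGLN2, whose product PHD1 is the third HIF prolyl hydroxylase, had 26.3, 21.8 and 27.1 FPKM in the hypoxia libraries, against 32.2, 41.5 and 42.1 FPKM in the normoxia libraries. All hypoxia values were below all normoxia values, by the least in normoxia library 1. The means were 25.1 ± 2.84 FPKM in hypoxia and 38.6 ± 5.57 FPKM in normoxia (SD, n = 3 each), a log2 fold change of -0.60 with an SE of 0.17 (limma adjusted p = 0.0364). Relative to the median of all genes the change was -0.33, and after scaling it was -0.29 and did not pass (limma adjusted p = 0.384). The call was also lost without hypoxia library 1, hypoxia library 2, normoxia library 2 or normoxia library 3 (highest limma adjusted p = 0.161). Without hypoxia library 3 it was kept (-0.66, limma adjusted p = 0.00703). The authors' deposited table does not mark this row (q-value 0.473).

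VHL, on chromosome 13 from 66334603 to 66342640, had 5.27, 5.34 and 2.25 FPKM in the hypoxia libraries, against 5.51, 5.38 and 5.85 FPKM in the normoxia libraries. Hypoxia libraries 1 and 2 lay just under the normoxia values, and library 3 lay far below them. The log2 fold change was -0.38 (SE 0.28, limma adjusted p = 0.368), and -0.06 without hypoxia library 3.

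HIF1AN, which encodes the asparaginyl hydroxylase FIH, lies on chromosome 14 from 111636376 to 111650318. It had 10.6, 11.0 and 8.18 FPKM in the hypoxia libraries, against 12.7, 12.4 and 12.2 FPKM in the normoxia libraries. The conditions did not overlap, but the log2 fold change of -0.31 with an SE of 0.16 (limma adjusted p = 0.200) lay near the median of all genes and was -0.01 after scaling. Without hypoxia library 3 it was -0.19 (limma adjusted p = 0.300). An unnamed row overlaps HIF1AN on the same strand, with at most 0.177 FPKM. No row overlaps any other member.

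Hypoxia and normoxia values did not overlap for 7 of the 8 tested members, all but ARNT. Over all tested genes 44.1% did not overlap by the same rule. The authors' deposited table marks 3 members as up (EGLN3, EGLN1 and HIF3A) and 2 as down (EPAS1 and HIF1A). Over its 18060 genes, the authors' deposited table marks 4.75% as up and 8.72% as down. Its log2 fold changes were 2.26 for EGLN3 and 1.79 for EGLN1, -1.71 for EPAS1 and -1.24 for HIF1A in the authors' deposited table.

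**Figure D2:**
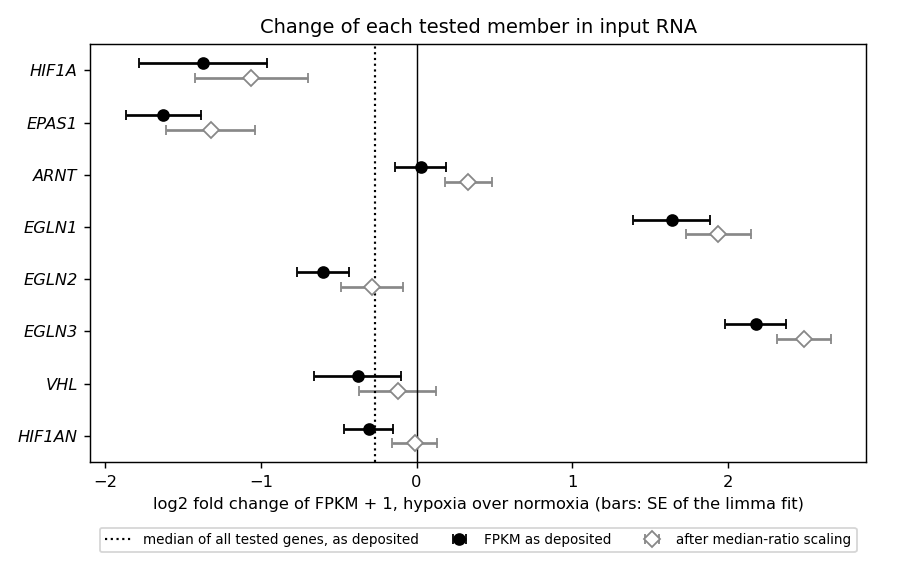
Log2 fold change of FPKM + 1, hypoxia over normoxia (horizontal axis), of the 8 tested genes with the SE of the limma fit, as deposited (filled circles) and after median-ratio scaling (open diamonds). The dotted line marks the median of all tested genes at -0.265. As deposited, ARNT, EGLN2, VHL and HIF1AN lie near it, while HIF1A, EPAS1, EGLN1 and EGLN3 lie over 1 log2 unit from it.

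The order of the levels differed between the conditions. In hypoxia EGLN3 had the highest mean level, followed by EGLN1, HIF1A, EGLN2 and ARNT, whose ranges overlapped from each to the next. HIF1AN and EPAS1 came next with overlapping ranges, then VHL and HIF3A. In normoxia HIF1A was highest, followed by EGLN2 and EPAS1 with overlapping ranges, then ARNT, EGLN3, HIF1AN, EGLN1, VHL and HIF3A, each with a range separate from the next.

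The make-up of the prolyl hydroxylase mRNA was compared as a share within each library, which no scaling of libraries can move. EGLN3 made up 58.6%, 58.1% and 55.8% of the summed FPKM of the 3 EGLN genes in the hypoxia libraries, against 31.0%, 23.9% and 21.8% in the normoxia libraries. The EGLN3 shares of the hypoxia libraries lay close together and above every normoxia share. The mean share was 57.5 ± 1.47% in hypoxia and 25.6 ± 4.85% in normoxia (SD, n = 3 each), a difference of 31.9 percentage points (exact permutation test, two-sided, p = 0.1, the smallest that 3 against 3 libraries can give). The EGLN2 row held 19.1 ± 5.30% in hypoxia and 59.9 ± 6.31% in normoxia, and EGLN1 23.4 ± 4.08% in hypoxia and 14.5 ± 1.46% in normoxia. Without the EGLN2 row, EGLN3 made up 71.2 ± 3.20% of EGLN1 and EGLN3 in hypoxia and 63.6 ± 1.97% in normoxia, a difference of 7.63 percentage points (exact permutation p = 0.1).

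**Figure D3:**
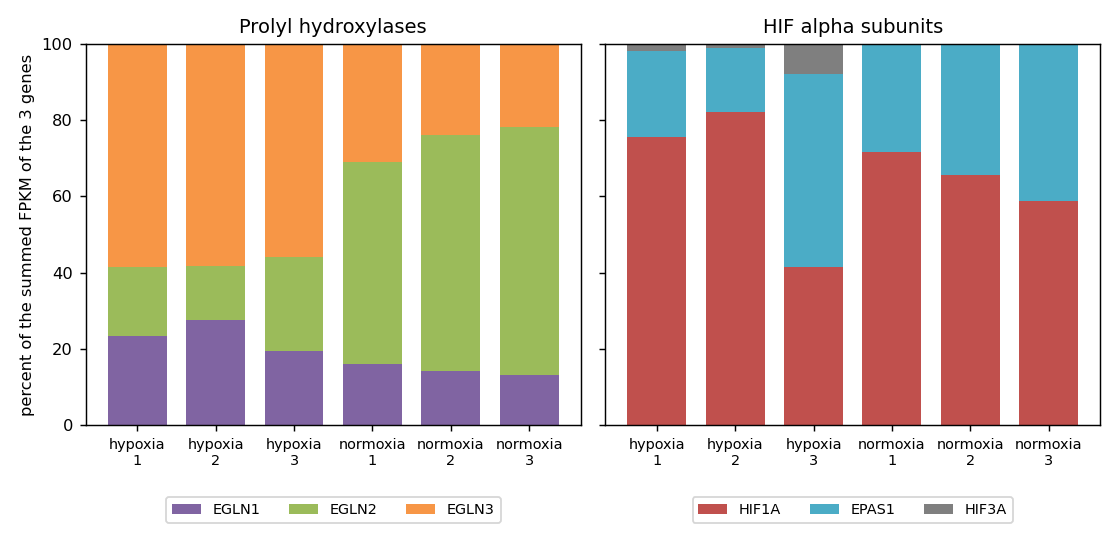
Percent of the summed FPKM of the 3 prolyl hydroxylase genes (left) and of the 3 alpha subunit genes (right) held by each gene in every library. EGLN3 held 55.8% to 58.6% in the hypoxia libraries and 21.8% to 31.0% in the normoxia libraries, while the HIF1A share overlapped between the conditions and was lowest in hypoxia library 3.

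Among the alpha subunits the HIF1A share overlapped between the conditions. HIF1A made up 75.5%, 82.3% and 41.5% of the summed alpha subunit FPKM in the hypoxia libraries, against 71.8%, 65.8% and 58.7% in the normoxia libraries. Hypoxia libraries 1 and 2 lay above and library 3 below all normoxia shares. The mean share was 66.4 ± 21.8% in hypoxia and 65.4 ± 6.52% in normoxia (SD, n = 3 each), a difference of 1.02 percentage points (exact permutation test, two-sided, p = 1.0). Without hypoxia library 3 the difference was 13.5 percentage points, and without hypoxia library 2 it was -6.91, so its direction rests on single libraries.

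The summed levels of both families moved apart. The 3 EGLN genes together had 144.5, 152 and 109 FPKM in the hypoxia libraries, against 60.9, 67.1 and 64.8 FPKM in the normoxia libraries. The 3 alpha subunit genes together had 34.8, 47.4 and 26.1 FPKM in the hypoxia libraries, against 91.5, 89.7 and 93.6 FPKM in the normoxia libraries. Summed EGLN level was thus 4.15, 3.21 and 4.19 times the summed alpha subunit level in the hypoxia libraries and 0.665, 0.748 and 0.692 times in the normoxia libraries. In every hypoxia library the hydroxylase genes outweighed the alpha subunit genes, and in every normoxia library the alpha subunit genes were the higher. The EGLN sums include the row matched to EGLN2 by position, with a mean share of 19.1% in hypoxia and 59.9% in normoxia. They were not computed without it.

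The authors' deposited peak lists give the m6A peaks of each condition, with a log2 enrichment of antibody-enriched over input RNA that is the authors' value for each peak. The hypoxia list holds 14 peaks on 7 members and the normoxia list 15 peaks on 8. HIF3A, whose level was near 0, has no peak in either. Among the tested members, 7 of 8 have a peak in the hypoxia list and 8 of 8 in the normoxia list, beside 79.8% and 85.8% of all tested genes. Of the 14 hypoxia peaks 12 overlap a normoxia peak of the same gene by at least 1 base, and 12 of the 15 normoxia peaks overlap a hypoxia peak. Each list gives 1 call per condition with no replicates, so presence in 1 list alone is a description.

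**Figure D4:**
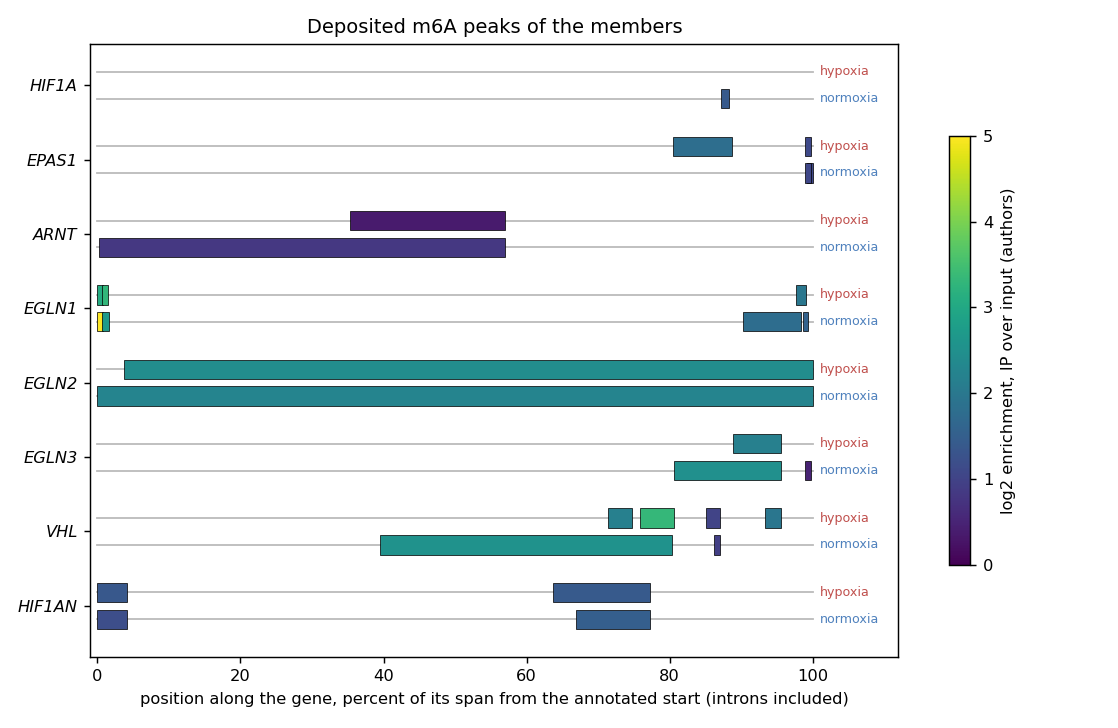
Deposited m6A peaks of the 8 genes that have any, along the gene from its annotated start to its end in percent of its span with introns (horizontal axis), hypoxia list above normoxia list, coloured by the authors' log2 enrichment of antibody-enriched over input RNA. HIF1A has a peak in the normoxia list and none in the hypoxia list, EPAS1 has an exonic peak in the hypoxia list and none there in the normoxia list, and the narrowest peaks are drawn slightly wider than they are.

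HIF1A had 1 peak in the normoxia list and 0 in the hypoxia list. In the authors' deposited table for normoxia it lies on chromosome 1 from 190668519 to 190669071, is annotated as exonic and has a log2 enrichment of 1.39 with an adjusted p of 1e-176. In the authors' deposited tables, 1107 normoxia peaks have a p-value at or below that of this peak, and 9 of them (0.813%) have no overlapping hypoxia peak. The HIF1A peak set that cut and is itself 1 of the 9, so this share is a description and no test. Of all tested genes, 8.48% have a peak in the normoxia list alone, and among the 8 tested members HIF1A was 1 such gene. The authors' deposited table of differential peaks nevertheless lists none for HIF1A. The input level of HIF1A in hypoxia was 25.4 FPKM, against 59.9 FPKM in normoxia, and its part in the absence of a hypoxia peak was not tested.

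EPAS1 had the only differential peak of the 9 genes, where 9.62% of all tested genes have one. In the authors' deposited table of differential peaks it spans 94175749 to 94183038 on chromosome 3, is annotated as exonic and has a log2 difference of 1.47, higher in hypoxia, with an adjusted p of 1.58e-17. Of the 1206 peaks of the authors' deposited differential table, 58 (4.81%) have a difference at or above this one and 7 (0.58%) a p-value at or below its own. The authors' deposited hypoxia list has a peak over the same exons (log2 enrichment 1.79) that has no overlapping peak in the normoxia list. Near the 3′ end, the authors' deposited lists share a peak from 94166622 to 94166742, annotated to the 3′ UTR, with a log2 enrichment of 1.10 in hypoxia and 1.07 in normoxia. A further 3′ UTR peak from 94165935 to 94166324 (log2 enrichment 1.06) is in the authors' deposited normoxia list alone. The m6A difference of EPAS1 was thus positive while its input RNA was lower in hypoxia, and whether the lower input level bears on the m6A value was not tested.

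The hydroxylase genes carried peaks in both lists. On EGLN1, the authors' deposited lists place peaks in the first exonic bases, from 59113844 to 59113993, with a log2 enrichment of 3.08 in hypoxia and 4.99 in normoxia, and from 59114174 onward with 3.29 in hypoxia and 2.70 in normoxia. Its 3′ UTR holds 1 peak in the authors' deposited hypoxia list (1.98) and 2 in the normoxia list (1.77 and 1.56). EGLN3 has a 3′ UTR peak ending at 65832302 in both of the authors' deposited lists, with a log2 enrichment of 2.17 in hypoxia and 2.49 in normoxia. This peak covers 1886 bases in the hypoxia list and 4202 bases in the normoxia list, so the values belong to unlike spans. The second normoxia peak of EGLN3, closer to the end of the gene, has a log2 enrichment of 0.48 and an adjusted p of 0.105 in the authors' deposited table. The EGLN2 row has 1 peak over nearly its whole span in each of the authors' deposited lists, with 2.43 in hypoxia and 2.25 in normoxia. That second EGLN3 peak has no overlapping peak in the hypoxia list, while each EGLN1 peak and the main EGLN3 peak overlap a peak of the other condition.

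VHL has 4 peaks in the authors' deposited hypoxia list, all annotated to the 3′ UTR, with log2 enrichments of 2.16, 3.34, 1.01 and 1.97. The authors' deposited normoxia list has 2 on VHL, with 2.56 and 0.93, the first of them overlapping 2 of the hypoxia peaks. HIF1AN has a 5′ UTR peak with 1.36 in hypoxia and 1.18 in normoxia, and a 3′ UTR peak with 1.39 in hypoxia and 1.49 in normoxia, in the authors' deposited lists. ARNT has the weakest hypoxia peak of these genes in the authors' deposited lists, with a log2 enrichment of 0.36 over 12200 bases annotated as exonic. Its normoxia peak there has 0.81 over 31852 bases annotated to the 5′ UTR, so the values belong to unlike spans. The spans of peaks cover introns as well as exons.

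Other genes of the pathway were counted by list in the same limma test, beside a median log2 fold change of -0.265 over all genes. Of all 10196 tested genes, 551 (5.4%) were higher and 2148 (21.1%) lower. Without hypoxia library 3, 994 of 10011 were higher and 3168 lower, so calls rose over all genes too. The counts of each list below stand beside these. The partners of VHL in its ubiquitin ligase had a median of -0.59, with 0 of 6 tested genes higher and 2 lower, and 4 lower without hypoxia library 3. UBE2M, which loads NEDD8 onto the cullin, fell to 32.9 ± 2.16 FPKM in hypoxia, against 73.3 ± 9.13 FPKM in normoxia (SD, n = 3 each; log2 fold change -1.13, limma adjusted p = 0.00236). NEDD8, the modifier itself, fell to 43.1 ± 4.15 FPKM in hypoxia, against 77.5 ± 3.15 FPKM in normoxia (SD, n = 3 each; -0.83, limma adjusted p = 0.00521). Both calls were kept after scaling. UBE2M and NEDD8 act on other cullin ligases too, not on the VHL ligase alone. The cullin CUL2, RBX1 and the elongins ELOB and ELOC did not pass with all libraries.

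Of 13 tested genes whose products stabilise, destabilise or bind HIF or EGLN proteins, 1 was higher and 0 were lower, with a median of -0.14, and 2 were higher and 1 lower without hypoxia library 3. FKBP8, which binds the PHD2 protein and lowers its stability in human cells, had 326 ± 105 FPKM in hypoxia and 145 ± 22.8 FPKM in normoxia (SD, n = 3 each; log2 fold change 1.12, limma adjusted p = 0.0162). The FKBP8 call was lost without hypoxia library 1, normoxia library 1 or normoxia library 2 (highest limma adjusted p = 0.0706). Among 9 tested coactivators of HIF and their competitors, 0 were higher and 2 lower, with a median of -0.45 and the same counts without hypoxia library 3. That is close to the 21.1% of all tested genes that were lower, and after scaling 1 of the 9 was lower. CITED1, which binds the coactivators EP300 and CREBBP, fell to 0.254 ± 0.0805 FPKM in hypoxia, against 1.89 ± 0.403 FPKM in normoxia (SD, n = 3 each; -1.20, limma adjusted p = 0.00228). CITED1 reached 1 FPKM in the normoxia libraries alone. It thus entered the test through the condition where it was higher, and its call is no independent evidence of direction. APEX1, a redox factor and DNA repair enzyme, had a log2 fold change of -0.59 (limma adjusted p = 0.0281) that did not pass after scaling (limma adjusted p = 0.248) or without hypoxia library 1 or any 1 normoxia library.

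Among 7 tested relatives of the HIF subunits with a bHLH-PAS domain, 1 was higher and 1 lower, with a median of 0.17. Of all tested genes, 5.4% were higher and 21.1% lower. Without hypoxia library 3, 2 of 6 tested were higher and 1 lower. NPAS1, a factor known mainly from neurons, rose to 4.1 ± 0.727 FPKM in hypoxia, against 0.550 ± 0.121 FPKM in normoxia (SD, n = 3 each; log2 fold change 1.71, limma adjusted p = 0.000894). NPAS1 reached 1 FPKM in the hypoxia libraries alone. It thus entered the test through the condition where it was higher, and its call is no independent evidence of direction. ARNT2, which can take the place of ARNT as a partner, had 24.2 ± 1.04 FPKM in hypoxia and 38.2 ± 0.704 FPKM in normoxia (SD, n = 3 each; -0.64, limma adjusted p = 0.0104). The ARNT2 call was lost after scaling (limma adjusted p = 0.168) and without any 1 normoxia library (highest limma adjusted p = 0.0665). In hypoxia the mean level of ARNT2 was near the 20.5 ± 3.34 FPKM of ARNT, and in normoxia above the 20.0 ± 0.912 FPKM of ARNT. Of 4 tested genes for other oxygen-dependent dioxygenases, P4HTM, ADO, KDM5A and KDM6A, 0 passed in either direction in limma and 0 had an unadjusted p under 0.05, also without hypoxia library 3.

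**Figure D5:**
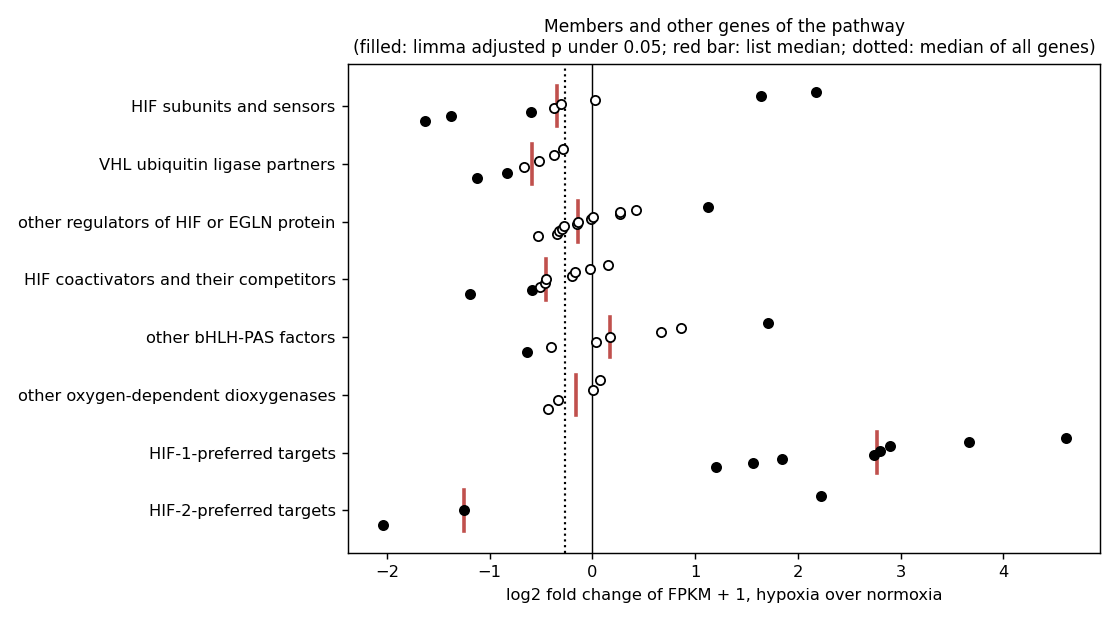
Log2 fold change of FPKM + 1, hypoxia over normoxia (horizontal axis), of the tested genes of each pathway list, filled where the limma adjusted p was under 0.05, with the list median as a red bar and the median of all genes as a dotted line. All 8 HIF-1-preferred targets lie to the right with a median of 2.77, while the medians of most other lists lie within 1 log2 unit of 0.

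Target genes were divided by the subunit they are known to prefer in human cell lines. All 8 tested targets that HIF-1 prefers rose, with a median log2 fold change of 2.77, as did the 7 of them tested without hypoxia library 3. The list was drawn up with earlier results of these data known, so its count is no independent evidence of direction. BNIP3, a mitophagy receptor, reached 899 ± 85.0 FPKM in hypoxia, against 35.8 ± 4.05 FPKM in normoxia (SD, n = 3 each; 4.61, limma adjusted p = 2.29e-05). The log2 fold change was 3.66 for the aldolase ALDOC, 2.90 for ANKRD37 and 2.80 for lactate dehydrogenase LDHA, with limma adjusted p-values of 0.00023, 0.00023 and 0.000738. ANKRD37 reached 1 FPKM in the hypoxia libraries alone, so it entered the test through the condition where it was higher. Of 3 tested targets that HIF-2 prefers, 1 rose and 2 fell, with the same counts without hypoxia library 3. The growth factor gene TGFA fell to 0.774 ± 0.156 FPKM in hypoxia, against 6.31 ± 0.677 FPKM in normoxia (SD, n = 3 each; -2.04, limma adjusted p = 0.000461). TGFA reached 1 FPKM in the normoxia libraries alone. It thus entered the test through the condition where it was higher, and its call is no independent evidence of direction. The cyclin gene CCND1 fell to 5.22 ± 1.08 FPKM in hypoxia, against 13.7 ± 1.56 FPKM in normoxia (SD, n = 3 each; -1.25, limma adjusted p = 0.00374). HIF-1-preferred targets were thus higher in libraries where HIF1A mRNA was lower, and HIF proteins were not measured.

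The genes whose level over the 6 input libraries was most like that of EGLN3 were HERC3, TM4SF1 and CRB2, each with a Pearson r of 0.999 on log2(FPKM + 1). Those most like HIF1A were ERCC4, CYBRD1 and ANKRD40, also with r = 0.999. An r of at least 0.95 was shared by 242 of the other 10195 genes for EGLN3 and by 974 for HIF1A. These correlations describe 6 libraries in 2 conditions, and hypoxia library 3, which stood apart, is 1 of the 6.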

How the data were processed

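Input RNA and m6A peaks came from 12 libraries, 6 of them input, in 1 batch per the labels. The authors deposited FPKM for 18060 genes, per the file headers, and a table comparing the conditions gene by gene, with log2 fold changes, p-values and q-values. Their deposited peak tables give a log2 enrichment (or a log2 difference between conditions), p-value and adjusted p-value per peak. The submitters' processing notes name HOMER 4.10, edgeR 4.1, StringTie 2.1.2, HISAT2 2.0.4, FastQC and fastp 0.19.4, with the build Sscrofa11.1. Not given in the sources used here are the role of each, the peak caller, the strand setting and any pooling of replicates for peaks. No listed peak has an unadjusted p-value of 0.05 or more, while adjusted p-values reach 0.532 in the hypoxia list, 0.489 in the normoxia list and 0.308 in the differential table deposited by the authors. Peak starts were taken to count from 0, and the text prints them counting from 1, since 3085 hypoxia and 3369 normoxia peaks begin 1 base before their gene and 0 at it. A positive difference was read as higher in hypoxia: of 519 positive peaks 87 overlap the hypoxia list alone and 0 the normoxia list alone, and of 687 negative peaks 0 and 121 do.

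The rows of VHL and EGLN2 were found by description and by position (at least 80% of both spans), and their peaks by gene ID. FPKM hold no counts: of 509 low genes searched for whole-read steps between hypoxia libraries 1 and 2, 3 share the commonest ratio, so depth is unknown and no counting interval is given. The 6 FPKM columns repeated in the comparison table were not used. Hypoxia was compared with normoxia by limma 3.58.1 in R 4.3.3, with trend and robust estimation, on log2(FPKM + 1), a scale that understates changes of low genes. The filter was 1 FPKM in 3 libraries, with Benjamini-Hochberg adjustment over all tested genes and a threshold of 0.05. The script was tested on simulated data. Errors are SD over 3 libraries for FPKM and SE of the fit for log2 fold changes. Shares were compared by exact permutation with scipy 1.17.1 in Python 3.11.15. Alternatives were median-ratio scaling, a pseudocount of 0.1, no filter, a replicate block, leaving out each library, adjusted p under 0.05 for peaks and 50% overlap of both peaks. Leaving EGLN2 out of the share, and counting only members with a symbol, were chosen after seeing the data. Every member is named, and from each list up to 4 called genes with the largest fold change. For EGLN3 and HIF1A the 3 genes with the highest correlation are named. The members and lists were chosen with earlier results of these data known. Of the listed genes, 12 were not found by symbol, ID or position and are not analysed here. The values of 1 gene of the HIF-2-preferred list are not reported here.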

Additional observations from a re-analysis of the deposited data

How the results depend on the processing

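The counts of higher members (2) and higher list genes (11) stayed within 1.5 times under every alternative, with 8 to 12 list genes when 1 library was left out. Members called lower were 3, and 1 after median-ratio scaling and 1 with no filter on low values; leaving out 1 library gave 1 to 3. HIF1A and EGLN2 are the calls lost, HIF1A also with a pseudocount of 0.1 (limma adjusted p = 0.0539). List genes called lower were 7, and 3 to 10 with 1 library left out. The calls over all genes numbered 2699 as deposited and 1686 after scaling, with 20.4% and 46.7% of them higher, and 1009 to 4162 with 1 library left out. Why these calls depend on the setting was not tested.

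The difference in the HIF1A share ran from -6.91 to 13.5 percentage points with 1 library left out and was -0.33 with 1 FPKM added to each gene, against 1.02 as reported. The EGLN3 share differed by 30.1 to 34.7 percentage points with 1 library left out. With an overlap of at least 50% of both peaks, 6 hypoxia and 6 normoxia peaks were shared, against 12 and 12.

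The replicate numbers are not stated to pair cultures. Deviations of same-numbered libraries correlated at 0.586, 0.0398 and 0.697, and hypoxia library 2 correlated best with normoxia library 1 (0.641). With the replicate block, limma called 3463 genes against 2699, 12 list genes higher and 10 lower, and the same 2 members higher and 3 lower, with the EGLN3 share difference unchanged at 31.9 percentage points (exact sign-flip p = 0.25, the smallest possible). FPKM give no depth, so no limit of detection can be stated for HIF3A.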
